A study of Homo sapiens with 10 samples.

Results

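HTB-182 is a squamous carcinoma line of the human lung, also known as NCI-H520, and the comparison described here sets every HTB-182 array exposed to an estrogen against the vehicle array of the same line. The members are 5 of the 10 arrays of the series, chosen by the cell line and exposure named in their source descriptions. Of these 5 arrays, 4 held cells exposed to an estrogen: 1 µM estradiol, 1 µM estradiol plus 10 µM tamoxifen, 1 µM of an estradiol conjugate with bovine serum albumin (estradiol-BSA), and 1 µM estradiol-BSA plus 10 µM tamoxifen. The remaining array held vehicle cells in 0.1% ethanol. All cells, vehicle included, had spent 4 h in charcoal-stripped serum before the 3 h exposure, and each condition was 1 array. The other 5 arrays carried the same exposures of A549, a lung adenocarcinoma line, and are used here only for comparison. No array with tamoxifen alone or albumin alone was analysed here, so an effect common to the 4 estrogen arrays cannot be told apart from anything else the 4 cultures shared and the vehicle culture did not. The title of the array with estradiol plus tamoxifen names tamoxifen only, while its source description names both compounds, and the description was followed.

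Estradiol acts through the nuclear receptors alpha (ESR1) and beta (ESR2), which bind palindromic estrogen response elements or tether to factors such as AP-1. It also acts through receptors at the plasma membrane, including GPER1, a G protein-coupled receptor that signals to kinases within minutes. Estradiol-BSA is a conjugate used to engage receptors at the cell surface, and tamoxifen is an antagonist of the nuclear receptors in breast cells but an agonist at GPER1.

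Values are MAS5 intensities, a microarray's relative brightness per probe set scaled per array, and differences are in log2(intensity + 16), which understates the change of dim genes. Each gene was read from its brightest probe set that names 1 gene, and the intensity filter, the median over all probe sets, stood at 18.3. Of 19777 genes, 12807 passed it. The 4 estrogen values of a gene are always listed as estradiol, estradiol plus tamoxifen, estradiol-BSA, and estradiol-BSA plus tamoxifen. The gap of a gene is the distance from the vehicle value to the nearest of the 4 estrogen values when vehicle lies outside their range. The 5 HTB-182 arrays had median intensities of 17.5 to 18.9. The 3' over 5' ratio of the actin control probe sets, a sign of RNA quality, was 3.74, 4.61, 4.38 and 6.13 on the estrogen arrays, against 4.30 on the vehicle array. The array with estradiol-BSA plus tamoxifen had the highest ratio.

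The labelled cell type was checked against markers. SOX2, the squamous lineage factor, had 3843 to 4377 on the estrogen arrays, against 4331 on the vehicle array and a median of 153 over the A549 arrays. The squamous cytokeratin KRT5 lay near the filter, at 18.7 to 24.1 on the estrogen arrays, against 28.5 on the vehicle array. KRT14, DSG3 and PKP1 were below the filter, so only 3 of 6 measured squamous markers passed it. Of the other marker lists, 4 of 6 alveolar, 3 of 4 neuroendocrine, 5 of 5 mesenchymal, and 2 of 4 blood and endothelial genes passed. INSM1, a neuroendocrine transcription factor, had 281 to 395 on the estrogen arrays, against 307 on the vehicle array. The leukocyte marker PTPRC was below the filter. None of the 5 marker lists held a gene past the limma threshold.

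The receptors that could carry an estrogen response were dim in HTB-182. The brightest ESR1 probe set had 18.5, 26.3, 17.5 and 17.7 on the estrogen arrays, against 21.3 on the vehicle array. ESR2 had 26.0, 27.9, 28.7 and 29.7 on the estrogen arrays, against 26.8 on the vehicle array, and GPER1 had 17.3, 26.4, 29.8 and 24.0 on the estrogen arrays, against 19.5 on the vehicle array. In these 3 genes the vehicle array lay within the range of the estrogen arrays, and all their other probe sets were below the filter. PGR, which encodes the progesterone receptor and is induced by estrogen in breast cells, was below the filter on both of its probe sets. The differences from vehicle were -0.06 ± 0.14 for ESR1, 0.04 ± 0.11 for ESR2 and 0.18 ± 0.15 for GPER1 (log2, SE).

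The study was designed to find early responses that start from estrogen receptors at the membrane. The comparison of any estrogen with vehicle asks what the 4 exposures had in common. By limma's moderated test, 1 gene did in HTB-182. That gene, the long non-coding RNA LOC105376805, rose past the threshold over the 5 arrays, and 0 genes fell past it. That is 1 of 12807 genes higher (0.00781%) and 0 lower (0%), at a Benjamini-Hochberg adjusted p below 0.05. At an unadjusted p below 0.05 the same limma fit held 719 genes (5.61%). That share lay close to the cutoff itself. The mean of the estrogen arrays was above vehicle for 7610 genes (59.4%). Over all genes the median difference was 0.03 and its median size 0.08 on the log2 scale. The half-width of the 95% interval had a median of 0.26, or 1.19-fold. For 12785 genes (99.8%) that interval lay within a 2-fold change in either direction. The spread behind these values is that among the 4 estrogen arrays, which differ in treatment, and the lone vehicle array is assumed to vary like them.

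All 4 estrogen arrays were above vehicle for 3486 genes (27.2%) and below it for 1904 (14.9%). A lone array is the lowest or the highest of its set for many genes by order alone. These counts were therefore not read as a response. With the arrays scaled to 1 trimmed mean, 58.4% of the genes outside the range were higher, against 64.7% as deposited, and 58.2% with the mean over the probe sets of a gene. The gap reached 1.25-fold, a limit chosen after the values were seen, for 25 higher genes (0.195%) and 32 lower genes (0.25%), and 1.5-fold for 3 higher genes (0.0234%) and 1 lower gene (0.00781%). Just inside the 1.5-fold limit were gaps of 0.59 for APLP1 and -0.61 for TNFAIP8L3 (log2), and just outside it 0.55 for INTU and -0.56 for PKM. With 1 estrogen array left out, which widens gaps by construction, 36 to 47 genes were higher and 36 to 62 lower by 1.25-fold, and 3 to 7 higher and 1 to 4 lower by 1.5-fold. Above 1.25-fold, the highest count of higher genes came without the estradiol plus tamoxifen array, and the highest count of lower genes came without the estradiol-BSA plus tamoxifen array.

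Sequences upstream of the genes with the largest gaps are shown here because an estrogen response carried by ESR1 or ESR2 at a promoter would be read there. RefSeq promoters (GRCh38.p14) were found for 15 of the 20 genes with the largest gaps, and the 250 bases before the gene start are given for the leading pair in each direction. IFIH1 and LOC105376805 were higher with estrogen, and TNFAIP8L3 and PKM were lower.
IFIH1, chr2:162318685-162318934, minus strand: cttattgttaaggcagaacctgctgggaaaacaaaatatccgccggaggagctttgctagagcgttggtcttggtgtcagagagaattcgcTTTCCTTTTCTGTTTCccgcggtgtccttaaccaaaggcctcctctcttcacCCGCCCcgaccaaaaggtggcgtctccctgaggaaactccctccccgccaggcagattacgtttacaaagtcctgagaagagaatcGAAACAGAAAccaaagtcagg
LOC105376805, chr1:16889667-16889916, minus strand: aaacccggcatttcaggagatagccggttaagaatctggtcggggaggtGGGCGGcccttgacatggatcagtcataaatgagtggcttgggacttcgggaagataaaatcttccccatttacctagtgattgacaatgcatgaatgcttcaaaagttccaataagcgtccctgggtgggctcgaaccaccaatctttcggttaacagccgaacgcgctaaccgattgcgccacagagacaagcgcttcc
TNFAIP8L3, chr15:51105277-51105526, minus strand: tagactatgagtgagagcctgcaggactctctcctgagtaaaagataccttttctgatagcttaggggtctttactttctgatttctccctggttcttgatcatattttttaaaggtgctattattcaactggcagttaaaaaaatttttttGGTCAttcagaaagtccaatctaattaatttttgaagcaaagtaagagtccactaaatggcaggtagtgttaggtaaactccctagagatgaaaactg
PKM, chr15:72231191-72231440, minus strand: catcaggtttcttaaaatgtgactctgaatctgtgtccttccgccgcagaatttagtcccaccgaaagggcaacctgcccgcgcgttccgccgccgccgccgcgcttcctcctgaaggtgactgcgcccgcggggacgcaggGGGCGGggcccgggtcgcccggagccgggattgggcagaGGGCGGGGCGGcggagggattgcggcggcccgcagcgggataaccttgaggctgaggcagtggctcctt
Capitals mark matches, on either strand, to any of 6 motifs: the estrogen response element GGTCANNNTGACC, its half-site GGTCA, the AP-1 site TGANTCA, the cAMP response element TGACGTCA, the GC box GGGCGG and the interferon response core GAAANNGAAA. The half-site is contained in the full element. The full estrogen element was in none of these 4 windows, and over all RefSeq promoters of this length it was found in 12 of 27305 (0.0439%). The half-site was found in the TNFAIP8L3 window and in 33.1% of all promoters. The GC box was found in the IFIH1, LOC105376805 and PKM windows and in 42.3% of all promoters, or 65.9% of those of the genes tested. The IFIH1 window held the interferon response core 3 times, with some of the matches overlapping, and 3.07% of all promoters, or 2.05% of those of the genes tested, held it at least once. A match is a description of letters, and neither a match nor its lack was read as evidence on binding.

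The gene with the largest gap was IFIH1, which encodes MDA5, a cytosolic sensor of double-stranded RNA. IFIH1 had 67.0, 58.4, 54.4 and 44.4 on the estrogen arrays, against 18.1 on the vehicle array. All 4 estrogen values were well clear of vehicle, which sat at the intensity filter, and they were highest with free estradiol. The difference was 1.07 ± 0.16 (log2, SE), or 2.10-fold, with an adjusted p of 0.0785 in limma, which misses the threshold. Without the estradiol-BSA plus tamoxifen array the adjusted p was 0.000963, and over 15 alternative settings, 4 of which passed the threshold, it ranged up to 0.264. The other IFIH1 probe sets were below the filter, at 4.80 to 8.43 on the estrogen arrays, against 4.86 and 7.36 on the vehicle array. The difference therefore rests on 1 probe set.

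LOC105376805, an uncharacterised long non-coding RNA gene on chromosome 1, was the gene that passed limma's test. Its intensities were 314, 328, 330.5 and 283 on the estrogen arrays, against 163 on the vehicle array. The estrogen values spanned a narrow range and none came near vehicle. The rise was 0.88 ± 0.11 (log2, SE), or 1.84-fold, at an adjusted p of 0.0335. The call was lost in 11 of 17 alternative settings, including without the estradiol array (adjusted p of 0.0637), the estradiol plus tamoxifen array (0.102) or the estradiol-BSA array (0.253), while the log2 difference stayed between 0.74 and 0.94. It is read from a single probe set of a design that may match several transcripts, so the source of the signal is uncertain.

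**Figure D1:**
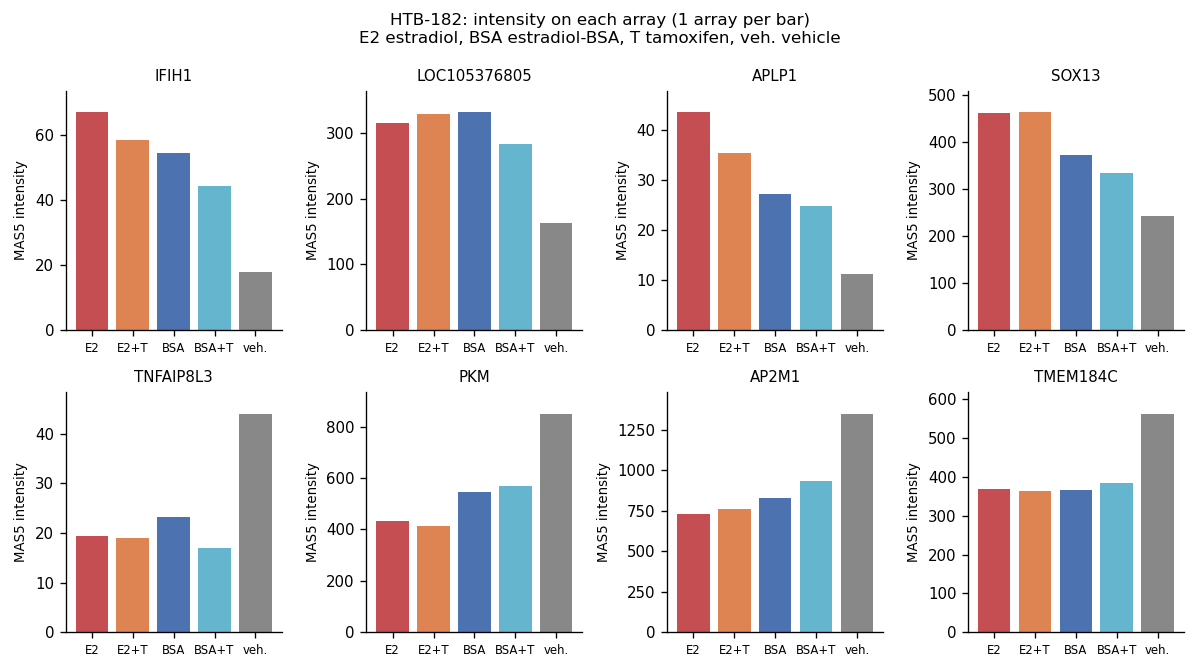
MAS5 intensity (vertical axis, from 0) of 8 genes on the 5 HTB-182 arrays, 1 bar per array with no replicate, the 4 estrogen arrays to the left of vehicle. In the upper row every estrogen bar stands above vehicle, as for IFIH1 (44.4 to 67.0, against 18.1), and in the lower row every estrogen bar stands below it, as for PKM (414 to 569.6, against 849).

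The next genes in the higher direction were of mixed function, and none of them passed limma's test over the 5 arrays. Of the fits with 1 estrogen array left out, APLP1, FAM120C and SOX13 passed it only without the estradiol-BSA plus tamoxifen array. Their differences there were 0.90, 0.73 and 0.79 (log2). SOX13 also passed with the form of estrogen as a covariate. APLP1, an amyloid precursor-like membrane protein of neurons, had 43.6, 35.5, 27.2 and 25.0 on the estrogen arrays, against 11.2 on the vehicle array, with a difference of 0.83 ± 0.17 (log2, SE). Its vehicle value and the general level were low, so the log2 difference depends on the constant added before the logarithm and ranged from 0.36 to 1.43 over the alternatives. INTU, an effector of planar cell polarity needed for cilia, had 68.6, 61.1, 54.0 and 57.6 on the estrogen arrays, against 31.9 on the vehicle array. FAM120C had 64.3, 62.5, 54.0 and 50.8 on the estrogen arrays, against 29.8 on the vehicle array. The other FAM120C probe set past the filter went the other way, at 33.0, 35.6, 29.6 and 34.7 on the estrogen arrays, against 37.4 on the vehicle array. The 2 FAM120C probe sets thus disagree.

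SLC68A1 had 33.3, 33.0, 33.1 and 30.4 on the estrogen arrays, against 16.3 on the vehicle array. WHAMMP2, a transcribed pseudogene, had 44.5, 53.8, 46.6 and 50.5 on the estrogen arrays, against 26.4 on the vehicle array. RIMS2, a scaffold protein of the presynaptic active zone, had 75.1, 81.0, 84.6 and 78.1 on the estrogen arrays, against 48.4 on the vehicle array. In these 3 genes the estrogen arrays differed little among themselves and lay clear of vehicle, with differences of 0.58, 0.61 and 0.57 (log2). Another RIMS2 probe set past the filter had its vehicle value within the estrogen range.

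SORBS2, an adaptor of the actin cytoskeleton, had 318, 319.7, 315 and 312 on the estrogen arrays, against 224 on the vehicle array. Its estrogen values were almost level, yet 5 other SORBS2 probe sets passed the filter and none of them had vehicle below all estrogen arrays. With the mean over all its probe sets the SORBS2 difference was -0.06 in place of 0.47. SOX13, a transcription factor of the SOXD group, had 462, 463, 372 and 334 on the estrogen arrays, against 242 on the vehicle array. Both free estradiol arrays were above both estradiol-BSA arrays, and the difference from vehicle was 0.70 ± 0.15 with an adjusted p of 0.314. A second SOX13 probe set was within the range, at 166, 108, 245 and 234 on the estrogen arrays, against 167 on the vehicle array.

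In the lower direction the leading gene was TNFAIP8L3, a lipid transfer protein of the TNFAIP8 family. TNFAIP8L3 had 19.3, 18.9, 23.2 and 16.9 on the estrogen arrays, against 43.9 on the vehicle array. The estrogen values lay at or near the intensity filter and vehicle was clearly brighter. The difference was -0.76 ± 0.12 (log2, SE), with an adjusted p of 0.102.

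PKM, pyruvate kinase of glycolysis, had 432, 414, 546 and 569.6 on the estrogen arrays, against 849 on the vehicle array. The difference was -0.79 ± 0.15 (log2, SE), with an adjusted p of 0.25, and both free estradiol arrays were farther from vehicle than both estradiol-BSA arrays. The other PKM probe set lay on the same side, with a smaller difference of -0.20 and a narrow gap of -0.02 (log2). It was dimmer, at 38.7, 44.7, 34.3 and 32.6 on the estrogen arrays, against 45.5 on the vehicle array. AP2M1, the medium subunit of the clathrin adaptor AP-2, had 730.0, 761, 827 and 937 on the estrogen arrays, against 1349 on the vehicle array. Its difference was -0.72 ± 0.11, with an adjusted p of 0.0785.

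TMEM184C had 369, 363, 367 and 384 on the estrogen arrays, against 562 on the vehicle array. The 4 estrogen values were almost equal, and the difference of -0.58 ± 0.09 (log2, SE) had an adjusted p of 0.0785. PPP4C, the catalytic subunit of protein phosphatase 4, had 442, 427, 443 and 469 on the estrogen arrays, against 648 on the vehicle array. The pattern was the same, with a difference of -0.53 ± 0.09 and an adjusted p of 0.122. Of the fits with 1 estrogen array left out, TNFAIP8L3, PKM, AP2M1, TMEM184C and PPP4C passed the threshold only without the estradiol-BSA plus tamoxifen array. Their differences there were -0.72, -0.86, -0.79, -0.60 and -0.55 (log2). With the form of estrogen as a covariate, PKM, AP2M1 and TMEM184C passed the threshold as well. The array left out had the highest 3' over 5' ratio, and whether the ratio bears on these calls was not tested.

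DUXAP10, a pseudogene that is transcribed, had 114, 107, 113 and 107 on the estrogen arrays, against 174 on the vehicle array. LAMA2, a laminin chain of basement membranes, had 46.0, 42.8, 40.4 and 41.8 on the estrogen arrays, against 73.4 on the vehicle array, and its other probe sets past the filter lay on opposite sides of vehicle. APOBEC3C, a cytidine deaminase that restricts retroelements, had 23.9, 29.5, 27.8 and 29.8 on the estrogen arrays, against 49.6 on the vehicle array. In all 3 genes the estrogen arrays stayed clear of vehicle.

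HMX2, a homeobox factor, had 35.0, 34.8, 34.3 and 35.7 on the estrogen arrays, against 57.8 on the vehicle array. LRRC75A had 16.6, 25.4, 21.9 and 27.4 on the estrogen arrays, against 45.5 on the vehicle array. The HMX2 values with estrogen were within 1.5 units of each other, while those of LRRC75A were spread around the filter. The differences were -0.60 for DUXAP10, -0.61 for LAMA2, -0.59 for APOBEC3C, -0.54 for HMX2 and -0.67 for LRRC75A, none past limma's threshold.

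**Figure D2:**
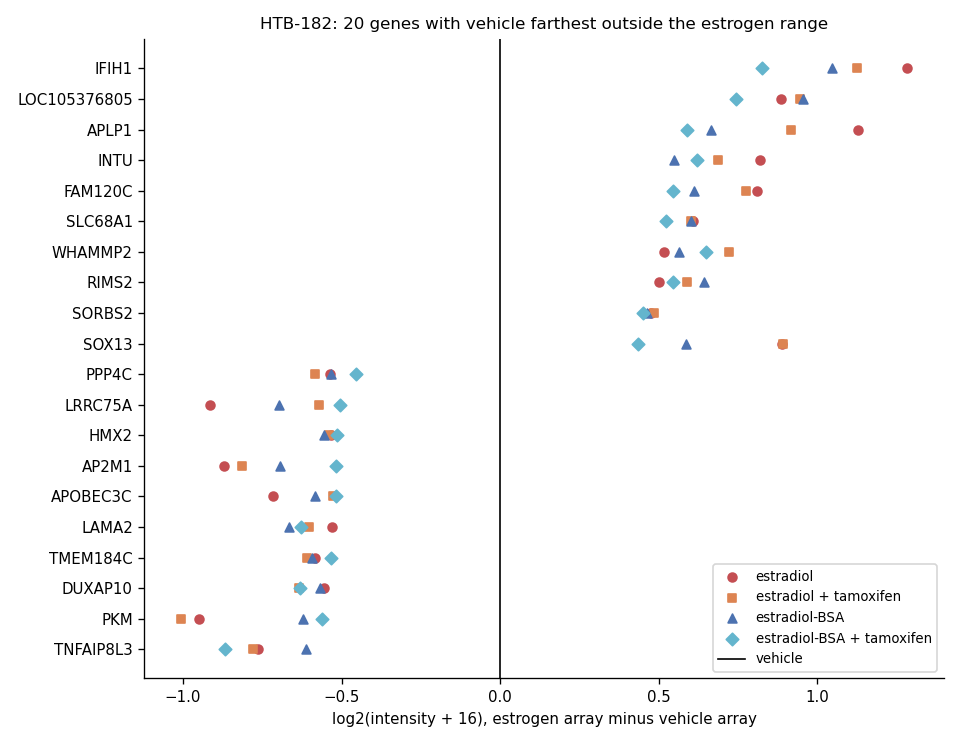
Difference of each estrogen array from the vehicle array (horizontal axis, log2(intensity + 16)) for the 10 higher and 10 lower HTB-182 genes with the largest gaps, 1 symbol per array and the vehicle array as the line at 0. For IFIH1, APLP1, INTU, FAM120C and SOX13 the estradiol arrays lie farther from vehicle than the estradiol-BSA arrays, and for SORBS2, HMX2 and TMEM184C the 4 symbols nearly coincide.

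Taken 1 at a time against the vehicle array, with no replicate check, estradiol had 24 genes at least 1.5-fold higher (0.187%) and 36 lower (0.281%). Estradiol plus tamoxifen had 26 higher (0.203%) and 28 lower (0.219%), estradiol-BSA had 31 higher (0.242%) and 30 lower (0.234%), and estradiol-BSA plus tamoxifen had 34 higher (0.265%) and 72 lower (0.562%). These counts share the vehicle array. In the genes with a gap of 1.25-fold, the spread among the 4 estrogen arrays was much like that of all genes. Its median SD was 0.10 in the higher and 0.11 in the lower genes, against 0.09 over all genes (log2). The order of the estrogen arrays was counted as well. Among the 25 genes higher by a gap of 1.25-fold, both free estradiol arrays were above both estradiol-BSA arrays for 8 (32%), against 904 of all 12807 genes (7.06%). The opposite order, both estradiol-BSA arrays above both estradiol arrays, held for 5 of the 25 (20%), against 4815 of all genes (37.6%). Among the 32 lower genes the free estradiol arrays were the lower pair for 16 (50%), against 37.6% of all genes. They were the higher pair for 3 (9.38%), against 7.06% of all genes. The 2 tamoxifen arrays were the higher pair for 3 of the 25 higher genes (12%) and for 3 of the 32 lower genes (9.38%), against 21.8% of all genes. The arrays without tamoxifen were the higher pair for 3 of the 25 (12%) and 3 of the 32 (9.38%), against 11.5% of all genes. These counts carry no test, and each form of estrogen is a pair of arrays.

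Probe sets of the same gene give a check that the choice of genes by their brightest probe set did not use. Of the 25 higher genes, 11 had another probe set past the filter. In 2 of these another probe set also had vehicle below all 4 estrogen arrays, in 3 above, and in 6 within the range. Of the 32 lower genes, 7 had one: 4 with another probe set on the same side, 3 with one on the opposite side and 2 within the range, and a gene can be counted on both sides. Over all genes with vehicle below the 4 estrogen arrays and another probe set past the filter, 599 of 1757 had one on the same side and 460 one on the opposite side. With vehicle above the 4 estrogen arrays these were 316 and 209 of 846. The genes with the larger gaps had a median intensity of 84.9 (higher) and 82.9 (lower), against 128 over all genes tested.

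Some genes had at least 1 other probe set past the filter on the same side and none on the opposite side. The 6 with the largest gaps among the higher genes were SAMHD1, MTERF4, CENPI, B9D1, ZNF764 and LRPAP1. SAMHD1, a dNTP hydrolase that restricts viruses, had 531, 363, 377 and 506 on the estrogen arrays, against 279 on the vehicle array, and its agreeing other probe set had 290.4, 236, 262 and 247 on the estrogen arrays, against 195 on the vehicle array. The remaining 2 SAMHD1 probe sets past the filter had vehicle within the range, and the median difference over the 3 was 0.02 (log2). ZNF764, a zinc finger protein, had 71.4, 72.1, 66.6 and 65.5 on the estrogen arrays, against 50.2 on the vehicle array, and its other probe set had 36.3, 39.5, 39.2 and 38.6 on the estrogen arrays, against 28.4 on the vehicle array. Both ZNF764 probe sets thus gave differences of similar size, 0.36 and 0.29 (log2). LRPAP1, a chaperone of the LDL receptor family, had 296, 279.7, 289.9 and 280.4 on the estrogen arrays, against 226 on the vehicle array, and both of its other probe sets lay on the same side. MTERF4, a factor of mitochondrial ribosome assembly, CENPI, a kinetochore protein, and B9D1, a protein of the ciliary transition zone, had differences of 0.37, 0.37 and 0.39 (log2). Only 1 of their other probe sets past the filter was on the same side, of 3 for MTERF4, 2 for CENPI and 2 for B9D1, and the rest had vehicle within the range.

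The corresponding 6 lower genes were PKM, GPX3, FGFRL1, POLR2E, MSX2 and SLC25A37. GPX3, a secreted glutathione peroxidase, had 40.1, 46.4, 55.4 and 55.8 on the estrogen arrays, against 80.3 on the vehicle array. The GPX3 values with free estradiol were the farther from vehicle, and the difference was -0.57 (log2). POLR2E, a subunit shared by the nuclear RNA polymerases, had 1157, 1203, 1129.8 and 1256 on the estrogen arrays, against 1543 on the vehicle array, a difference of -0.38 ± 0.08 with an adjusted p of 0.25. FGFRL1, a receptor of the FGF receptor family without a kinase domain, had 299.7, 299, 342 and 350.2 on the estrogen arrays, against 435 on the vehicle array. The gap of its agreeing probe set was -0.04 (log2), at 14.5 to 24.4 on the estrogen arrays, against 25.4 on the vehicle array. MSX2, a homeobox factor, and SLC25A37, the mitochondrial iron carrier mitoferrin, had differences of -0.43 and -0.38. Of the 6 other SLC25A37 probe sets past the filter, 2 were on the same side. None of these 12 genes passed limma's test over the 5 arrays in either direction.

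Gene lists of pathways that estrogen, its membrane receptors or cell stress could engage are described by their members past the filter. No member of any of the 16 lists passed limma's threshold in HTB-182. The share of members with all 4 estrogen arrays above or below vehicle is read against 27.2% and 14.9% over all genes. The median difference is read against 0.03. For single arrays the median over all genes was -0.02 with estradiol, 0.01 with estradiol plus tamoxifen, 0.05 with estradiol-BSA and 0.07 with estradiol-BSA plus tamoxifen. The lists were chosen with earlier results of these data known, and they carry no test.

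Classical estrogen targets had 3 of 17 members above vehicle on all 4 estrogen arrays and 3 below it, with a median of 0.00. MYB, an estrogen-responsive transcription factor in breast cells, had 782, 762, 752 and 747 on the estrogen arrays, against 669 on the vehicle array. The estrogen arrays were above vehicle by a little, with a difference of 0.18 (log2). SIAH2, a ubiquitin ligase, had 218, 219.8, 274 and 272 on the estrogen arrays, against 298 on the vehicle array, so it was lowest with free estradiol. RARA, retinoic acid receptor alpha, had a difference of 0.19. Of the 3 other RARA probe sets past the filter, 1 had vehicle below all 4 estrogen arrays and 1 above. The receptors and their partners had 2 of 11 members above and 0 below, with a median of 0.04. FOXA1, a pioneer factor of the estrogen receptor, had 53.2, 55.1, 56.4 and 64.3 on the estrogen arrays, against 51.0 on the vehicle array. EGFR, which membrane estrogen signalling can transactivate, had 60.8, 60.8, 82.4 and 68.7 on the estrogen arrays, against 60.0 on the vehicle array, with vehicle barely under the estrogen range. Of its 3 other probe sets past the filter, 1 had vehicle above all 4 estrogen arrays and 0 had vehicle below them.

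The kinase and early-response lists bear on signalling from the membrane. Immediate early genes had 7 of 22 members above and 3 below, with a median of 0.04. KLF10, a factor induced early by estrogen and by TGF-beta in other cells, had 509.6, 500.2, 458 and 481 on the estrogen arrays, against 620.3 on the vehicle array. All estrogen values were below vehicle, with a difference of -0.34 ± 0.09 (log2, SE) and an adjusted p of 0.552. JUND, an AP-1 subunit, had 285, 339.7, 313 and 373 on the estrogen arrays, against 266 on the vehicle array, and the mRNA decay factor ZFP36 had 41.2, 46.7, 40.7 and 46.1 on the estrogen arrays, against 51.4 on the vehicle array. ERK feedback genes, which report on the ERK pathway, had 4 of 14 members above and 4 below, with a median of -0.02. SPRY4, an inhibitor of the pathway, had 187, 238, 158 and 159 on the estrogen arrays, against 245 on the vehicle array. ETV4 and ETV5, transcription factors of the ETS family, had differences of -0.37 and -0.19, with all estrogen values below vehicle.

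ID genes and BMP-SMAD targets had 5 of 13 members below vehicle on all 4 estrogen arrays (38.5%) and 2 above (15.4%), with a median of -0.05. The mean of the estrogen arrays was below vehicle for 11 of the 13. SKIL, a feedback repressor of SMAD signalling, had 557, 574, 489 and 547 on the estrogen arrays, against 663 on the vehicle array. ID4, an inhibitor of basic helix-loop-helix factors, had 936, 1031, 868 and 940.2 on the estrogen arrays, against 1082 on the vehicle array, while SMAD9 had 308, 299, 351 and 319 on the estrogen arrays, against 276 on the vehicle array. ID1, named after its values were seen, had 972, 758, 378 and 337 on the estrogen arrays, against 807 on the vehicle array, so vehicle lay within the range. The low ID1 values were those of both estradiol-BSA arrays. The list's median was -0.05 with estradiol, -0.03 with estradiol plus tamoxifen, -0.28 with estradiol-BSA and -0.08 with estradiol-BSA plus tamoxifen. The lowest median was that of the estradiol-BSA array without tamoxifen, against 0.05 over all genes on that array. With estradiol-BSA plus tamoxifen the list's median was also below that of all genes, 0.07.

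Interferon-stimulated genes had 9 of 22 members above vehicle (40.9%) and 3 below (13.6%), with a median of 0.06. Beside IFIH1 the widest gap was that of IRF7, the regulator of type I interferon genes, with 40.1, 38.9, 45.1 and 40.1 on the estrogen arrays, against 27.1 on the vehicle array. The IRF7 difference was 0.40 ± 0.12 (log2, SE), with an adjusted p of 0.731. IRF1 was on the other side, with 40.8, 43.6, 45.7 and 45.9 on the estrogen arrays, against 51.4 on the vehicle array. ISG15 and RIGI, named after their values were seen, show how the list parted. ISG15, a ubiquitin-like modifier, had 89.7, 88.2, 105 and 97.4 on the estrogen arrays, against 83.5 on the vehicle array, all estrogen values above vehicle. RIGI, the RNA sensor most like IFIH1, had 32.6, 48.9, 36.0 and 38.1 on the estrogen arrays, against 46.9 on the vehicle array, with vehicle within the range. NF-kB and cytokine genes had 1 of 8 members above and 2 below, with a median of -0.01. NFKB2, a subunit of NF-kB, had 22.4, 21.1, 26.4 and 23.3 on the estrogen arrays, against 15.9 on the vehicle array, and the cytokine IL1B had 27.8, 33.7, 27.6 and 29.4 on the estrogen arrays, against 36.6 on the vehicle array. Both were near the filter.

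Sterol synthesis and uptake genes had 6 of 14 members above vehicle (42.9%) and 0 below, with a median of 0.07. INSIG1, the sterol-regulated brake on SREBP processing, had 968, 1147, 977 and 1099 on the estrogen arrays, against 856 on the vehicle array. The values with tamoxifen were the higher of each pair, and the list's median was 0.15 with estradiol plus tamoxifen and 0.12 with estradiol-BSA plus tamoxifen, against 0.02 with estradiol and 0.02 with estradiol-BSA. FDPS, an enzyme of the mevalonate pathway, had 1372, 1491, 1382 and 1387 on the estrogen arrays, against 1214 on the vehicle array.

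G1/S and replication genes had 8 of 23 members above (34.8%) and 1 below (4.35%), with a median of 0.05. CDT1, a licensing factor of replication origins, had 401, 414, 508 and 498 on the estrogen arrays, against 351 on the vehicle array, highest with estradiol-BSA. MCM5, a helicase subunit, and CLSPN, a checkpoint mediator, had differences of 0.14 and 0.17. G2/M genes had 5 of 20 members above and 4 below, with a median of 0.01. PLK1, the mitotic kinase, had 114, 118, 129 and 130.0 on the estrogen arrays, against 176 on the vehicle array. The PLK1 estrogen values were all clearly below vehicle, with a difference of -0.47 ± 0.12 (log2, SE) and an adjusted p of 0.48. TPX2, a spindle factor, had a difference of -0.23, and CENPE, a kinetochore motor, one of 0.11.

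Hypoxia and glycolysis genes had 5 of 16 members above and 2 below, with a median of 0.07. ANKRD37, a target of HIF-1, had 297, 340.4, 401 and 382 on the estrogen arrays, against 249.8 on the vehicle array, with a difference of 0.47 ± 0.14. VEGFA and hexokinase HK2 had differences of 0.21 and 0.18. Of the 2 other VEGFA probe sets past the filter, 1 had vehicle below all 4 estrogen arrays and 1 above. The integrated stress response had 5 of 16 above and 2 below with a median of 0.07, the unfolded protein response chaperones 1 of 16 above and 3 below with a median of 0.01, and the heat shock response 0 of 11 above and 1 below with a median of 0.00. SESN2, a stress-induced regulator of mTORC1, had 57.1, 59.2, 51.9 and 55.7 on the estrogen arrays, against 73.0 on the vehicle array, all below vehicle. TRIB3, a pseudokinase induced by ATF4, had 115, 100.2, 112 and 111 on the estrogen arrays, against 91.7 on the vehicle array, all above it. The p53 targets had 5 of 13 above and 4 below with a median of 0.00, and the aryl hydrocarbon receptor and NRF2 targets had 3 of 12 above and 0 below with a median of 0.01. GCLC, an enzyme of glutathione synthesis, had 1877, 1867, 1860.0 and 1989.6 on the estrogen arrays, against 1653 on the vehicle array.

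**Figure D3:**
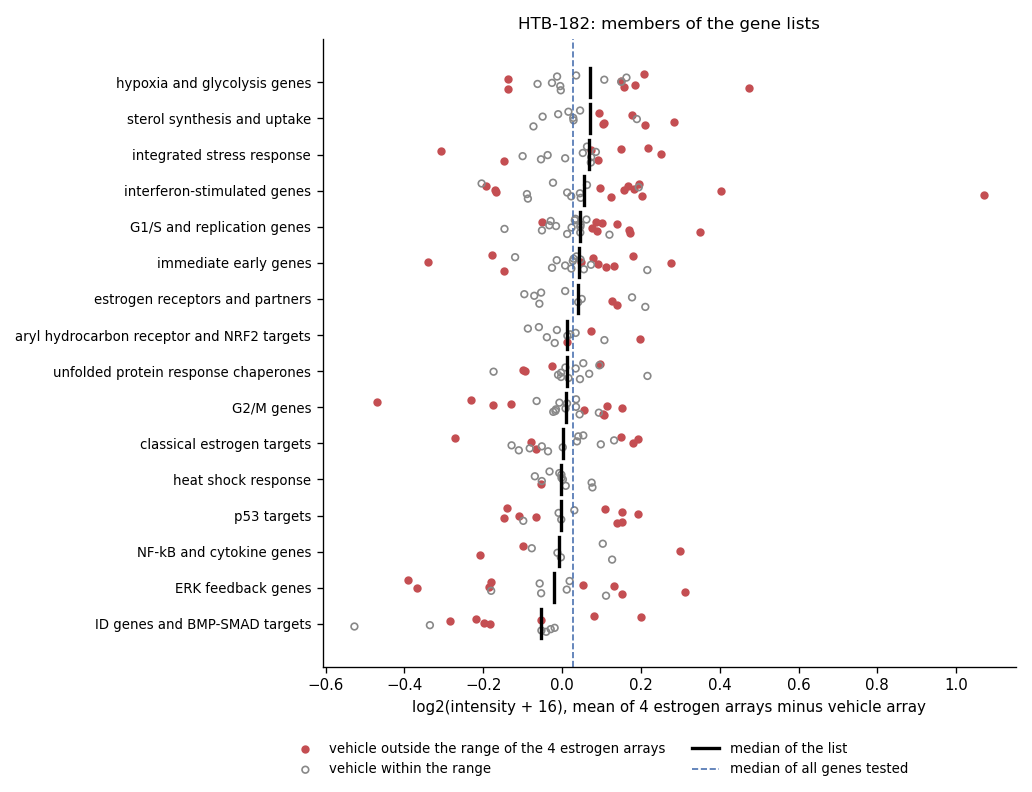
Difference of HTB-182 estrogen arrays from vehicle (horizontal axis, log2(intensity + 16), mean of 4 arrays minus 1) for the members of 16 gene lists, 1 point per gene, filled where vehicle lies outside the estrogen range, with the list's median as a bar and the median of all genes as the dashed line. The medians lie between -0.05 and 0.07, and IFIH1 stands alone at 1.07.

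Read against A549, the differences of HTB-182 were small. The median size of the difference from vehicle was 0.08 in HTB-182 and 0.24 in A549 (log2), and the largest was 1.07 in HTB-182 and 3.74 in A549. In A549 the vehicle array stood apart from the other arrays: 70.2% of genes had an estrogen mean below vehicle, and the median over all genes was -0.15. Of the 25 genes higher in HTB-182, 8 had a higher estrogen mean in A549 as well (32%), against 29.8% of all genes. Of the 32 genes lower in HTB-182, 21 were lower in A549 (65.6%), against 70.2% of all genes. Both shares were close to those of all genes.

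The difference between the lines was tested by a line by estrogen term in limma over all 10 arrays, with 6 residual degrees of freedom. The term was positive for 494 genes (3.86%) and negative for 332 (2.59%) at an adjusted p below 0.05. With 1 estrogen array left out there were 154 to 2706 positive and 226 to 945 negative genes, and both highest counts came without the A549 estradiol array. Leaving out any array except that one brought the positive count to 154 to 272. For genes with a large gap in HTB-182, the term contains the difference that chose them, so their number is a description: 13 of the 25 higher genes and 5 of the 32 lower genes passed. In LOC105376805 the lines moved apart, with 623, 703, 544 and 530.4 on the A549 estrogen arrays, against 855 on the A549 vehicle array. The difference was 0.88 in HTB-182 and -0.51 in A549, and the line term was 1.39 (log2), with an adjusted p of 0.00215 in limma. IFIH1 was dim in A549, with 11.7, 9.55, 11.7 and 9.59 on the A549 estrogen arrays, against 13.2 on the A549 vehicle array, a line term of 1.21 and an adjusted p of 0.00484.

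PPP4C went the other way in A549, with 434, 309.7, 284 and 272 on the A549 estrogen arrays, against 207 on the A549 vehicle array. Its line term was -1.12 (log2), with an adjusted p of 0.0304 in limma. KLF10 likewise was lower with estrogen in HTB-182 by -0.34 and higher in A549 by 0.63, a line term of -0.97 with an adjusted p of 0.0165. GPX3 had the same difference in both lines, -0.57 in HTB-182 and -0.57 in A549. By its brightest probe set, FAM120C was above vehicle on all 4 estrogen arrays of either line, by 0.69 in HTB-182 and 0.48 in A549. The other FAM120C probe set past the filter went the other way in HTB-182.

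**Figure D4:**
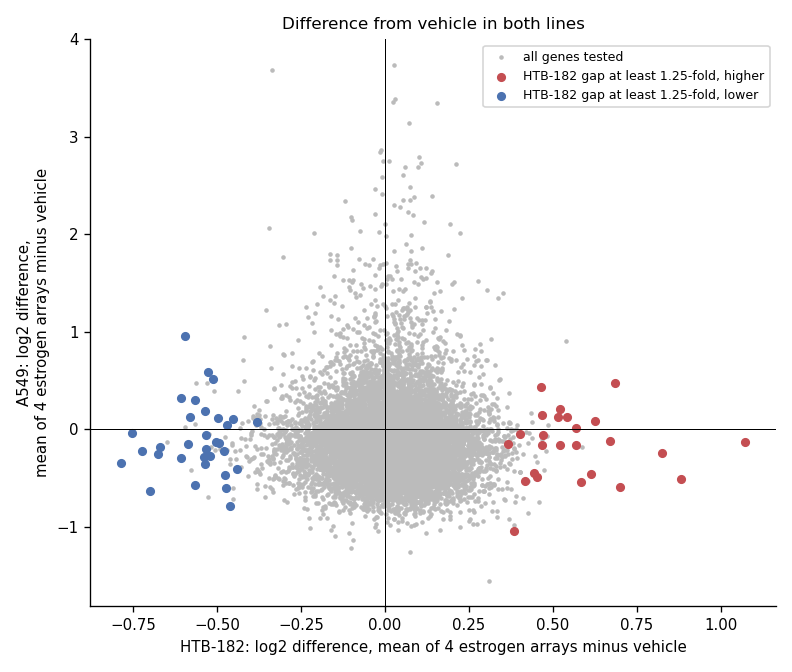
Mean of 4 estrogen arrays minus the vehicle array in HTB-182 (horizontal axis) and A549 (vertical axis), both log2(intensity + 16), for 12807 genes, with the 25 higher and 32 lower genes of a 1.25-fold gap in HTB-182 in colour. The grey cloud is wider along the A549 axis and centred below 0 there, and the coloured genes lie on both sides of 0 in A549.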

How the data were processed

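Each of the 10 arrays was deposited by the authors as 1 column of intensity values for 54675 probe sets, made with MAS5 per the submitters' processing notes, with version and settings not stated there. The intensities are scaled per array and hold no depth, so the number of arrays limits the precision. Gene names came from the platform annotation: 41091 probe sets name 1 gene, 1801 several, 11721 none, and 62 are controls; 41037 matched RefSeq genes. Values were taken as log2(intensity + 16). The main test was limma 3.58.1 in R 4.3.3 with an intensity trend, 3 residual degrees of freedom (12.5 in all after moderation, as a median) and Benjamini-Hochberg adjustment at 0.05 over 12807 genes. Labels name no separate cultures, so p-values measure only the spread between arrays.

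Named genes are the 10 largest gaps in each direction, the 6 largest in each direction with an agreeing other probe set, genes past limma's threshold, up to 3 members of each list by gap, and ESR1, ESR2, GPER1 and PGR. The members, lists and rules were chosen with earlier results of these data known. On simulated data of 12807 genes, the HTB-182 test recovered 29 of 100 genes changed by 0.5 and 85 of 100 changed by 1 on the log2 scale, with 6 false calls. The simulated vehicle array varied like the estrogen arrays, so these numbers do not cover a shift of the lone vehicle culture. Alternatives covered the added constant, the filter, scaling, the probe set rule, the spread and each array left out.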

Additional observations from a re-analysis of the deposited data

Results flagged for a closer look

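The difference from vehicle was itself different between the lines, by the line by estrogen term of limma at an adjusted p below 0.05, for 19 of the 78 named genes. Values are HTB-182 minus A549 on the log2 scale. The term was 1.21 for IFIH1, 1.39 for LOC105376805, 1.30 for SOX13 and 1.07 for APLP1. SLC68A1 had 1.12, WHAMMP2 1.07, INTU 0.79 and RIMS2 0.73. Of the genes with agreeing probe sets, B9D1 had 1.08, LRPAP1 0.88 and CENPI 0.73. TRIB3 had 0.93 and ANKRD37 0.89. In all these genes with a positive term except INTU, all 4 A549 estrogen arrays lay below the A549 vehicle array. That order held for 6376 of all 12807 genes, and the A549 median over all genes, -0.15, enters every term. For B9D1 and LRPAP1 the A549 differences, -0.69 and -0.56, were larger than those in HTB-182, 0.39 and 0.32. The term was negative for PPP4C at -1.12, KLF10 at -0.97, HMX2 at -0.72, TNFAIP8L3 at -0.71, TMEM184C at -0.71 and HSPA5, the endoplasmic reticulum chaperone BiP, at -0.59. HSPA5 had 6297, 5752, 5592 and 5897 on the A549 estrogen arrays, against 4162 on the A549 vehicle array. Over 14 alternative settings its term ranged from -0.69 to -0.08. Its other probe set past the filter was above vehicle on all 4 HTB-182 estrogen arrays, by 0.22 (log2). Of those 14 settings, the call was lost in 9 for INTU, 9 for CENPI and 7 for APLP1. It was lost in 6 for ANKRD37, 5 for SOX13 and 4 for PPP4C, and in at most 2 for the rest. RIMS2 (6.75 to 10.4), INTU (10.7 to 18.2) and IFIH1 (9.55 to 13.2) lay below the intensity filter on every A549 array. So did HMX2 (6.74 to 10.6) and TNFAIP8L3 (7.35 to 10.5). SLC68A1 had 12.6 to 21.2 on the A549 estrogen arrays, against 32.0 on the A549 vehicle array. The log2 scale used understates changes of dim genes. In the genes below the filter the term therefore cannot tell a different response from a signal too dim to read in A549. All 19 genes were named by their gap in HTB-182, alone, within a list or with an agreeing probe set, and that gap enters the term.

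In 5 of the 78 named genes, 1 HTB-182 estrogen array lay far from the other estrogen arrays, by the ratio of its gap to the whole range. Chance gives this in about 1 in 20 groups. The ratio was 0.917 for SLC68A1, 0.861 for GCLC and 0.837 for HYOU1, each with the estradiol-BSA plus tamoxifen array apart, and that array also had the highest 3' over 5' ratios of the control probe sets. It was 0.868 for FDPS and 0.867 for ESR1, each with the estradiol plus tamoxifen array apart. The ESR1 value of that array, 26.3, was close to the intensity filter.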

How the results depend on the processing

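No paired analysis was possible because each group is 1 array and the labels carry no replicate numbers that pair arrays. The single limma call of HTB-182, 1 gene higher and 0 lower, moved with the setting, and the cause was not tested: 2 higher with a constant of 1, 0 higher with a constant of 64, without the filter, with quantile normalization, with 1 trimmed mean, with the mean over probe sets, with tamoxifen as a covariate, without the intensity trend and with all 10 arrays, 3 higher and 4 lower with estrogen form as a covariate, and 2 higher and 1 lower with array weights. With 1 array left out there were 0 to 6 higher and 0 to 9 lower genes. The line term had 2550 positive and 869 negative genes with array weights, against 494 and 332, and 154 to 2706 and 226 to 945 with 1 array left out. Gaps depended on the constant and the filter by construction. At 1.25-fold, 79 genes were higher and 64 lower with a constant of 1, 4 and 8 with 64, and 13 and 17 with the filter at the 75th percentile; the mean over probe sets gave 13 higher, and 1 array left out gave 36 to 47 higher and 36 to 62 lower. At 1.5-fold, 8 were higher and 6 lower with a constant of 1, 1 and 0 with 64, and 1 and 0 with the stricter filter; 0 were lower with the filter on all 10 arrays, 2 lower with quantile normalization, 2 with 1 trimmed mean and 2 with the mean over probe sets, and 1 array left out gave 3 to 7 higher and 1 to 4 lower. Genes below vehicle on all 4 arrays numbered 3130 without the filter and 1002 with the stricter one, against 1904, and 2087 to 2786 with 1 array left out. Among single genes the sign turned with the mean over probe sets for SORBS2 (-0.062), SQLE (-0.037), DNAJA1 (0.014), NFKBIZ (0.012), HSPA5 (0.065) and MDM2 (0.013), with 1 trimmed mean for AKR1C1 (-0.0016), and with the filter on all 10 arrays for PDIA6 (0.030), which changes the probe set read. Of the other results for single genes, 1255 kept their side of the threshold, 17 passed it newly and 11, all of LOC105376805, lost it; of the line terms, 220 kept it and 45 lost it. Probe sets near the intensity filter limit what dim genes can show.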

Other observations

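Probe sets that name several genes, or none in the annotation used here, were left out of the comparison. Of the 1105 that name several genes and passed the filter in HTB-182, 0 had vehicle 1.5-fold or more outside the estrogen range. Of the 3232 with no gene named that passed it, 0 were higher and 2 lower by that gap.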
